A study of Mus musculus with 15 samples.

Results

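The complement genes C1qa, C1qb, C1qc, C4a, C4b, C2, C3, Cfb and Serping1, 9 in all, were followed through RNA sequencing of the distal colon of 15 mice. The genes were chosen by symbol. All 9 were present among the 12897 genes counted in at least 1 of the 3 deposited tables, and 8 of them were among the 12370 genes found in all 3. C2 was in only 1 table. The mice formed 5 groups of 3. Untreated wildtype mice of strain C57BL/6 (B6, from the study's methods C57BL/6J) made up a pair of groups, called control set 1 and control set 2 here after the numbers in their names, and a further group was made up of untreated Irf1-/- mice, which lack interferon regulatory factor 1, a transcription factor of the interferon response, in all cells. The D26 groups, 1 of B6 and 1 of Irf1-/- mice, had received azoxymethane (AOM, which alkylates DNA and causes colon tumours) at 7 mg/kg on day 1 and 2% dextran sulfate sodium (DSS, which injures the colonic epithelium) in drinking water from day 8 to day 11, and were killed on day 26, in a model that starts at 8 to 10 weeks of age. The age of the untreated mice was not given in the sources used here. Control set 1 shared a table with the B6 D26 mice, control set 2 shared a table with the untreated Irf1-/- mice, and the latter, with identical counts, shared the last table with the Irf1-/- D26 mice.

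Complement is a cascade of serum and tissue proteins that marks microbes and damaged cells for removal. C1q, assembled from the products of C1qa, C1qb and C1qc, recognises bound antibody or dying cells and, with the proteases C1r and C1s, cleaves C4 and C2. The C4 and C2 fragments form an enzyme that cleaves C3, factor B (Cfb) forms the equivalent enzyme of the alternative pathway, and the C1 inhibitor encoded by Serping1 holds C1r and C1s in check. Most circulating complement comes from the liver, while C1q comes mainly from macrophages and related cells, and gut epithelium and stroma also transcribe several components, C3 and factor B among them.

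The libraries held between 22266607 and 22869853 counted reads, so depth hardly differed between groups. Values are CPM, read counts scaled to a common library size by 1 normalisation of all 15 libraries, errors beside CPM are SD of 3 mice, and those beside log2 fold changes are standard errors. Calls were made with edgeR's quasi-likelihood test, and needed a fold change of 1.5 or more and a p under 0.01 after Benjamini-Hochberg adjustment. The labels check against Irf1 itself: every Irf1-/- library held fewer Irf1 reads (1786 to 2769) than any B6 library (2882 to 5188), although the counts cover all exons and do not show which were removed. Of the tissue markers, 13 of 13 epithelium and 8 of 8 smooth muscle markers were in the tables. Other features of the libraries also differed, and they were not spread evenly over genotype and treatment. Xist, transcribed from the inactive X chromosome of female cells, was at 573 and 134 reads in replicates 1 and 2 of the B6 D26 group and at 263 in replicate 1 of the Irf1-/- D26 group, against 7288 to 83932 in the untreated libraries. The slope of gene counts on GC content was 0.131 to 0.274 log2 units per 10% GC in the B6 D26 libraries and -0.119 to 0.0302 in the other groups. Because whole colon tissue was sequenced, more cells of a type and more RNA per cell cannot be told apart in any value below.

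In untreated B6 colon (control set 1), transcript levels per kilobase of the longest annotated transcript were highest for C1qa, at 51.5 ± 12.6 CPM per kb. Cfb (47.2 ± 2.66), Serping1 (46.0 ± 6.38), C1qc (41.8 ± 8.23) and C1qb (35.8 ± 8.01 CPM per kb) came next. C3 followed at 31.1 ± 2.72 and C4b at 26.0 ± 3.96 CPM per kb. Neighbours in this order overlapped in their libraries. C4a (6.79 ± 1.24 CPM per kb) and C2 (2.33 ± 0.425 CPM per kb) lay below all of these, without overlap. In Irf1-/- D26 colon the order was different, with C3 at the top (64.0 ± 8.21 CPM per kb) and C4b at 53.8 ± 7.12. Cfb, at 39.8 ± 3.49, was the lowest of the measured genes apart from C4a at 14.2 ± 2.20 CPM per kb. In untreated Irf1-/- colon Cfb was at 42.8 ± 3.17 CPM per kb. Apart from C4a, neighbours in the D26 order again overlapped in their libraries.

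**Figure D1:**
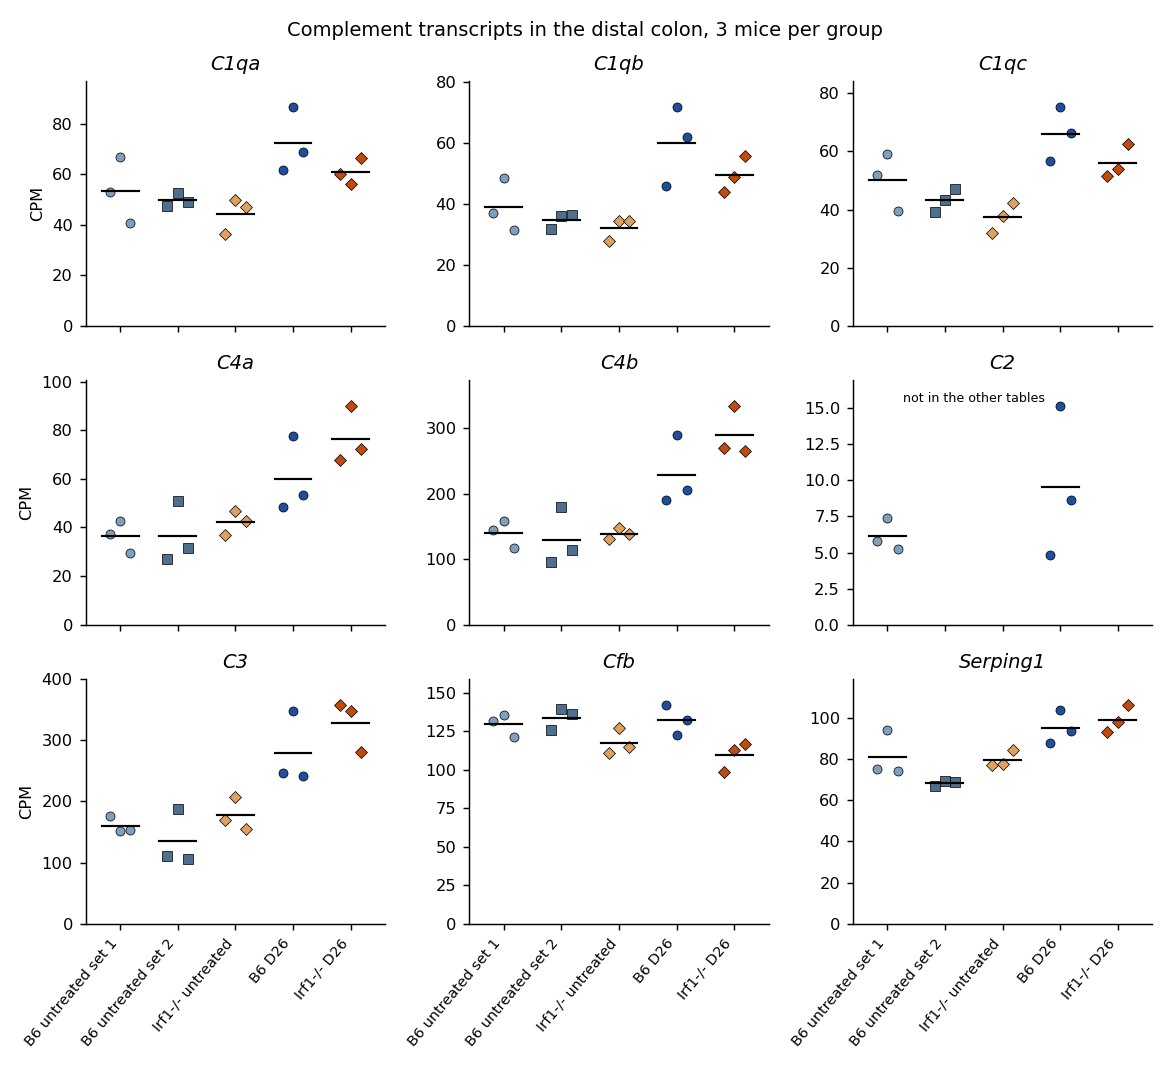
CPM of each complement gene (y axis, from 0) in every library, with 1 panel per gene, 3 mice per group along the x axis and the group mean as a bar. The D26 libraries of C3, C4a and C4b sit above the untreated libraries tabulated with them, with B6 D26 C3 at 242 to 348 CPM, whereas Cfb stays between 98.5 and 142 CPM throughout.

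C3, the component on which all complement pathways converge, was higher at D26 in both genotypes. In B6 mice the untreated libraries of control set 1 held 176, 151 and 153 CPM and the D26 libraries 246, 348 and 242 CPM. In Irf1-/- mice the untreated libraries held 170, 208 and 155 CPM and the D26 libraries 357, 349 and 280 CPM. No D26 library overlapped the untreated libraries of its genotype, and B6 D26 replicate 2 stood above its group. The log2 fold change was 0.81 ± 0.14 in B6 mice (adjusted p = 0.0206) and 0.89 ± 0.13 in Irf1-/- mice (adjusted p = 0.0176), neither of which reached the limit of 0.01. Averaged over both responses in 1 fit of the 12 libraries, C3 rose by 0.84 ± 0.11 on the log2 scale, a fold change of 1.79 (adjusted p = 0.000885), and was called whichever of the 12 mice was left out.

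RefSeq places the C3 start on chromosome 17. The 250 bases before it and 50 bases after it (GRCm38.p6, chr17:57228087-57228386, minus strand) are given here because this promoter was among those found. The reads themselves were counted on an older build, mm9. Capitals mark the single match to the C/EBP motif TTGCNNAA, whose first base lies at -45.
C3 promoter: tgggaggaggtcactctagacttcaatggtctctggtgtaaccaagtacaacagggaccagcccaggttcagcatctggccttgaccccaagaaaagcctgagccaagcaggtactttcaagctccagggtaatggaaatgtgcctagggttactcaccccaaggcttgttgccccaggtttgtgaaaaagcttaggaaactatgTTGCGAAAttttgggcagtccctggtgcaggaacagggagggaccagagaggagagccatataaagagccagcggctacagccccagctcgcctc
This motif was searched on both strands, with GAAA, any 2 bases and GAAA (an interferon-stimulated response element, the kind of site that interferon regulatory factors bind), TTCNNNGAA (a STAT site) and the kappa-B consensus. Of 32851 promoters of this length, 10.8% held the C/EBP motif, 3.44% the response element, 8.3% the STAT site and 4.51% the kappa-B consensus. The C3 window held none of the latter 3 letter patterns.

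C4b encodes the C4 protein that is cleaved when C1q is engaged. In B6 mice it was at 144, 159 and 117 CPM in control set 1 and at 190, 290 and 206 CPM at D26. In Irf1-/- mice it was at 131, 148 and 138 CPM in untreated and at 270, 334 and 265 CPM in D26 libraries. The groups did not overlap in either genotype, and B6 D26 replicate 2 and Irf1-/- D26 replicate 2 were the highest libraries of their groups. The log2 fold change was 0.72 ± 0.17 in B6 mice (adjusted p = 0.0383) and 1.06 ± 0.10 in Irf1-/- mice (adjusted p = 0.00529), a fold change of 2.09. C4b was thus the 1 of 8 measured members called in Irf1-/- mice, where 0.205% of all 12692 genes were called higher. Without untreated Irf1-/- replicate 1, 2 or 3 the adjusted p was 0.0404, 0.0318 or 0.0349, and C4b was called without any 1 of the D26 replicates. Over both genotypes C4b rose by 0.88 ± 0.11 on the log2 scale (adjusted p = 0.000856) and was called whichever mouse was left out.

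C4a, the neighbouring C4 copy known as sex-limited protein, is listed by RefSeq GRCm38.p6 as a transcribed pseudogene. Its libraries of control set 1 held 37.5, 42.6 and 29.4 CPM and its B6 D26 libraries 48.5, 77.7 and 53.2 CPM. The untreated Irf1-/- libraries held 36.8, 46.8 and 42.7 CPM and those at D26 held 67.6, 89.9 and 72.1 CPM. These groups did not overlap in either genotype, but replicate 2 of control set 2, at 51.0 CPM, lay above B6 D26 replicate 1. The log2 fold change was 0.72 ± 0.19 in B6 mice (adjusted p = 0.0499) and 0.86 ± 0.12 in Irf1-/- mice (adjusted p = 0.0172). Over both genotypes C4a rose by 0.79 ± 0.13 on the log2 scale, a fold change of 1.72 (adjusted p = 0.00262), again whichever mouse was left out.

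The C4 copies are alike enough for reads to be confused. Their longest GENCODE M21 transcripts (5371 bases for C4a and 5379 for C4b) were identical at 96.1% of 5367 aligned bases, with 207 mismatches and a longest identical run of 433 bases. Of the 50-base windows of C4a, the read length used, 35.2% occur unchanged in C4b, and 15% of 200-base C4b fragments have both ends in such windows. Of the 90-base stretches without gaps and away from the transcript ends, the one that differs most is shown as an example of what separates the genes. Capitals mark its 14 bases that differ, out of the 207 mismatches. It covers bases 2725 to 2814 of the C4a transcript and 2731 to 2820 of the C4b transcript.
C4a transcript: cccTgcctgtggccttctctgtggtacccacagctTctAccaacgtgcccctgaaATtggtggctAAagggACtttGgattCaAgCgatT
C4b transcript: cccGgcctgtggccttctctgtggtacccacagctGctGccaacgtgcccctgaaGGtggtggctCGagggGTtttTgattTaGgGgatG
Within a library the C4 counts kept nearly the same proportion. C4a had 25.0 to 31.6 reads per 100 C4b reads over all 15 libraries, with 28.0, 31.6 and 31.0 in untreated and 25.0, 26.9 and 27.2 in D26 Irf1-/- mice. The ratio was 26.0, 26.8 and 25.1 in control set 1 and 25.6, 26.8 and 25.8 in B6 D26 mice. The 3 libraries low in Xist had 25.6, 26.8 and 25.0, the last of which was the lowest of all 15. How many C4a reads came from C4b was not tested, so C4a is an uncertain value and no independent measure of the rise of C4b.

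**Figure D2:**
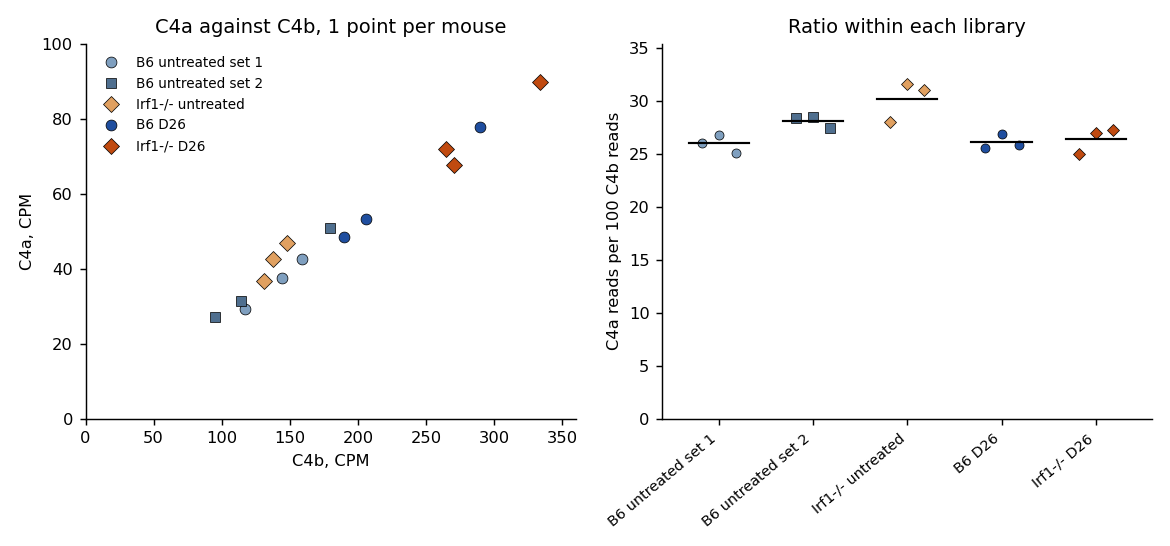
Left, C4a against C4b in CPM with 1 point per mouse; right, C4a reads per 100 C4b reads in every library, with group means as bars and both y axes starting at 0. The points lie along 1 line, and the ratio stays between 25.0 and 31.6.

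C1qa, C1qb and C1qc lie next to each other on chromosome 4 and encode the chains of C1q, a product of macrophages. C1qb held 37.1, 48.4 and 31.3 CPM in control set 1 and 45.8, 71.6 and 61.8 CPM in B6 D26 libraries. It held 27.7, 34.3 and 34.3 CPM in untreated and 43.7, 48.6 and 55.7 CPM in D26 Irf1-/- libraries. Replicate 1 of B6 D26 lay below the highest library of control set 1, while the Irf1-/- groups were apart. C1qb had a log2 fold change of 0.63 ± 0.19 in B6 mice (adjusted p = 0.0705) and 0.62 ± 0.11 in Irf1-/- mice (adjusted p = 0.0338). Over both genotypes C1qb rose by 0.62 ± 0.12 on the log2 scale, a fold change of 1.53 (adjusted p = 0.00691), just past both limits.

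C1qa was at 53.0, 66.9 and 40.6 CPM in control set 1 and at 61.7, 86.5 and 68.9 CPM in B6 D26 mice. Its Irf1-/- libraries were at 36.2, 49.7 and 47.0 CPM untreated and at 59.9, 56.0 and 66.5 CPM at D26. Here too B6 D26 overlapped with control set 1, and the Irf1-/- groups were apart. C1qa had a log2 fold change of 0.44 ± 0.18 in B6 (adjusted p = 0.141) and 0.46 ± 0.12 in Irf1-/- mice (adjusted p = 0.0838), and 0.44 ± 0.12 over both (adjusted p = 0.0257).

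C1qc was at 51.9, 59.2 and 39.7 CPM in control set 1 and at 56.8, 75.2 and 66.2 CPM in B6 D26 mice. In Irf1-/- mice it was at 31.8, 37.7 and 42.3 CPM untreated and at 51.7, 54.0 and 62.7 CPM at D26. D26 overlapped with control set 1 but not with the untreated Irf1-/- libraries. C1qc had a log2 fold change of 0.40 ± 0.15 in B6 mice (adjusted p = 0.122), 0.59 ± 0.11 in Irf1-/- mice (adjusted p = 0.0392) and 0.49 ± 0.11 over both (adjusted p = 0.00943), where its fold change of 1.41 fell short of 1.5. Control set 2 was lower in C1q, with C1qb at 31.6, 35.9 and 36.2 CPM and C1qc at 39.2, 43.3 and 47.1 CPM, all below the B6 D26 libraries. Against that set the B6 log2 fold change was 0.56 for C1qa (adjusted p = 0.021), 0.80 for C1qb (adjusted p = 0.0147) and 0.63 for C1qc (adjusted p = 0.0147), and over both genotypes C1qc was then called (0.60, adjusted p = 0.000879).

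Of the calls over both genotypes, that of C1qb was lost most often. It was made in 10 of 22 alternatives, against 21 for C4a and 22 for C3 and C4b. The call of C1qb over both genotypes was lost without replicate 1 or 3 of control set 1 (adjusted p = 0.0163 and 0.0175), without untreated Irf1-/- replicate 1, 2 or 3 (0.0187, 0.0157 and 0.0151), without replicate 2 or 3 of B6 D26 (0.0123 and 0.0173) and without replicate 2 or 3 of Irf1-/- D26 (0.0121 and 0.0133). The C1q transcripts are rich in GC (57.4% to 59.5%, against 52.3% to 55.3% in the other members), and with each library corrected for GC content the B6 log2 fold changes became 0.25 for C1qa, 0.45 for C1qb and 0.22 for C1qc, while C1qb over both genotypes was 0.52 (adjusted p = 0.0192).

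The promoters of C1qb (GRCm38.p6, chr4:136886151-136886450, minus strand) and C1qc (chr4:136892865-136893164, minus strand) are shown because they were found. That of C1qa, which moved together with these neighbouring genes, was not found. Capitals in C1qc mark the single match to the kappa-B consensus, with its first base at -41, and C1qb held none of the 4 patterns searched.
C1qb promoter: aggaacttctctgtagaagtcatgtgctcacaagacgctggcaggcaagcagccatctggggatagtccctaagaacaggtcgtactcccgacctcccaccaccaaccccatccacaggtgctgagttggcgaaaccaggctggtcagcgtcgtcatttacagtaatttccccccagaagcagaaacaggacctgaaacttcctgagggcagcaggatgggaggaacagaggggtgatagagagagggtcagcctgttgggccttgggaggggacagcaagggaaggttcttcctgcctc
C1qc promoter: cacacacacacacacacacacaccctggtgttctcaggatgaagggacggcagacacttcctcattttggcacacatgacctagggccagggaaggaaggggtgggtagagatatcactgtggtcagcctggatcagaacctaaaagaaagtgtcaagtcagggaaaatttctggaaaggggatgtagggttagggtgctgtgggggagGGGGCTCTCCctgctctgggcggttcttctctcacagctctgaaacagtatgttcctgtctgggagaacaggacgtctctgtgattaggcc

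Summed over its 3 genes, C1q was at 142, 175 and 112 CPM in control set 1, at 164, 233 and 197 CPM in B6 D26, at 95.7, 122 and 124 CPM in untreated Irf1-/- and at 155, 159 and 185 CPM in Irf1-/- D26 libraries. Macrophage markers were counted beside it. Of 20 listed markers 15 were measured in both responses, 11 of them had a positive log2 fold change over both genotypes and 1, the signalling adaptor gene Tyrobp, was called (0.60 ± 0.12, adjusted p = 0.00747), where 0.945% of all genes were called higher. Csf1r, the receptor that macrophages need to survive, had 0.46 ± 0.07 (adjusted p = 0.00226) and the lysozyme gene Lyz2 0.51 ± 0.12 (adjusted p = 0.0143). The summed level of these markers was 802 to 940 CPM in control set 1 and 935 to 1073 CPM in B6 D26, and 633 to 719 CPM in untreated and 777 to 897 CPM in D26 Irf1-/- libraries. Per 100 CPM of these markers, C1q was at 13.9 to 18.6 CPM in the 9 untreated libraries, at 17.6, 21.7 and 20.8 in B6 D26 and at 20.0, 19.1 and 20.6 CPM in Irf1-/- D26 libraries. The part that macrophage number played in the C1q values was not tested.

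**Figure D3:**
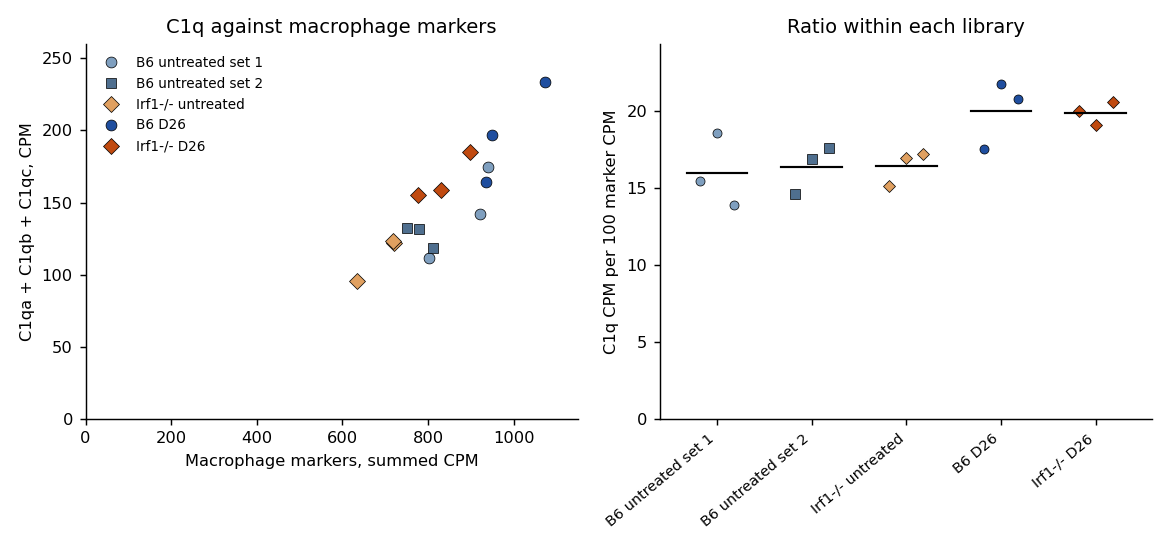
Left, the summed CPM of C1qa, C1qb and C1qc against the summed CPM of macrophage markers, with 1 point per mouse; right, the C1q sum per 100 CPM of markers in every library, with group means as bars. In each genotype the means of both sums are higher at D26 than in the untreated mice tabulated with it, with overlap between B6 D26 and control set 1, and 5 of the 6 D26 ratios lie above all untreated ones, which end at 18.6.

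C2, the protease that joins C4 in the C3-cleaving enzyme, reached the authors' minimum only in the table of the B6 response. It held 5.81, 7.40 and 5.23 CPM in control set 1 (132, 168 and 118 reads) and 4.83, 15.1 and 8.62 CPM at D26 (110, 340 and 197 reads). The D26 libraries lay on both sides of the untreated ones, and replicate 2 alone was more than 1.5 times any other library. C2 had a log2 fold change of 0.64 ± 0.36 (95% interval -0.17 to 1.45, adjusted p = 0.262). Without D26 replicate 2 it was 0.14 (adjusted p = 0.756), and without D26 replicate 1 it was 0.96 (adjusted p = 0.0464).

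Cfb, which lies beside C2 on chromosome 17, moved least. It held 132, 136 and 122 CPM in control set 1 and 142, 123 and 133 CPM in B6 D26 libraries. It held 111, 128 and 115 CPM in untreated and 98.5, 113 and 117 CPM in D26 Irf1-/- libraries. The treated and untreated libraries overlapped in both genotypes. Cfb had a log2 fold change of 0.04 ± 0.08 in B6 mice (95% interval -0.15 to 0.23, adjusted p = 0.785) and -0.10 ± 0.08 in Irf1-/- mice (95% interval -0.29 to 0.09, adjusted p = 0.585). Both intervals exclude a change of 1.5-fold. Set against C3, Cfb reads per 100 C3 reads were 81.5 ± 7.67 in control set 1 and 49.3 ± 12.2 in B6 D26, and 66.9 ± 6.40 in untreated and 33.9 ± 7.10 in D26 Irf1-/- libraries, without overlap in either genotype.

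Serping1, the C1 inhibitor, differed by less than the limit of 1.5-fold. It was at 75.2, 94.3 and 74.3 CPM in control set 1 and at 87.9, 104 and 93.9 CPM in B6 D26 mice, with overlap. It was at 77.4, 77.5 and 84.4 CPM in untreated and at 93.3, 98.1 and 106 CPM in D26 Irf1-/- mice, without overlap. Serping1 had a log2 fold change of 0.24 ± 0.11 in B6 mice (adjusted p = 0.190), 0.32 ± 0.07 in Irf1-/- mice (adjusted p = 0.0549) and 0.27 ± 0.07 over both (adjusted p = 0.0196). Against control set 2 (67.0, 69.6 and 68.8 CPM), which lay below every B6 D26 library, the B6 value was 0.49 (adjusted p = 0.0123).

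**Figure D4:**
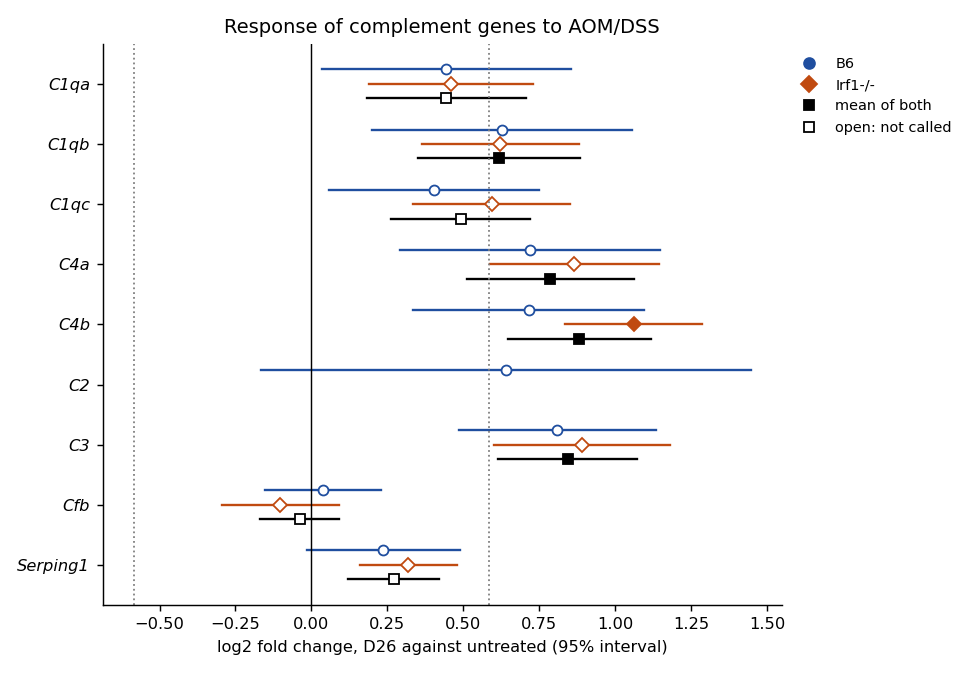
Log2 fold change of each complement gene at D26 against untreated mice (x axis, with its 95% interval as a line) in B6 mice, in Irf1-/- mice and over both. Filled symbols are genes called at a fold change of at least 1.5 (dotted lines) and an adjusted p under 0.01: C4b in Irf1-/- mice, and C1qb, C3, C4a and C4b over both genotypes.

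Counted together, all 9 members had a positive log2 fold change in B6 mice (median 0.63, against 0.01 for all genes, of which 51.8% were positive), but 0 of 9 were called, where 0.0316% of all 12643 genes were called higher. In edgeR, 6 of the 9 had an unadjusted p under 0.05 and a higher level, against 14.7% of all genes. With an adjusted p under 0.05 as the limit C3, C4a and C4b would have passed, against 1.76% of all genes. With GC correction C3 had 0.70 (adjusted p = 0.0709), C4a 0.58 (adjusted p = 0.162) and C4b 0.57 (adjusted p = 0.136). None of these genes would then have passed that limit. Limma voom called none, DESeq2 called 3 members (C3, C4a and C4b), and with both control sets as 1 group edgeR called C3 (adjusted p = 0.00707) and C1qb (adjusted p = 0.00997). In 3 of 9 members the B6 groups did not overlap with D26 higher, against 16.4% of all genes. In Irf1-/- mice 7 of 8 members had a positive log2 fold change (median 0.61), against 51.8% of all genes, and in the same 7 the groups did not overlap, against 12.2% of all genes. With an adjusted p under 0.05 as the limit 5 would have passed (C3, C4a, C4b, C1qb and C1qc), against 0.977% of all genes. C3 was also called there without D26 replicate 3 (adjusted p = 0.00968), and C4a without D26 replicate 1 (adjusted p = 0.00871). Over both genotypes 4 of 8 were called higher, against 0.945% of all 12483 genes (0.352% were called lower), and in 3 of 8, C3, C4a and C4b, all 6 D26 libraries lay above all 6 untreated ones, against 2.16% of all genes. These counts include C4a, which is no independent measure of C4b, and the members were chosen with earlier results of these data known.

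The libraries low in Xist were all treated, so these values were also taken with log2 Xist as a covariate. Over both genotypes C3 (log2 fold change 0.73, adjusted p = 0.0076) and C4b (0.82, adjusted p = 0.00674) were then called, and C4a (0.73, adjusted p = 0.018) and C1qb (0.60, adjusted p = 0.0318) were not. In B6 mice alone C3 was then at 0.64 (adjusted p = 0.0881), C4a at 0.50 (adjusted p = 0.192) and C4b at 0.52 (adjusted p = 0.147). In Irf1-/- mice C3 was at 0.83 (adjusted p = 0.0405), C4a at 0.97 (adjusted p = 0.0164) and C4b at 1.13 (adjusted p = 0.00716). In the 3 D26 libraries with high Xist (B6 D26 replicate 3 and Irf1-/- D26 replicates 2 and 3), C3 was at 242, 349 and 280 CPM, above the highest of the 9 untreated libraries at 208 CPM. C4b was at 206, 334 and 265 CPM in these libraries, above the untreated maximum of 179 CPM.

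Whether the response differed between genotypes was tested as the difference of the log2 fold changes, Irf1-/- minus B6. No member was called by edgeR, DESeq2 or limma voom, and 0 of 8 had an unadjusted p under 0.05 in edgeR, against 16.9% of all genes, where 0.016% of all 12483 genes were called higher and 0 lower. The difference was largest for C4b, at 0.35 ± 0.22 (95% interval -0.12 to 0.82, adjusted p = 0.432). Without B6 D26 replicate 2 the difference was 0.56 for C4b (unadjusted p = 0.00712, adjusted p = 0.102) and 0.38 for C4a, and with the replicate number as a block it was 0.35 for C4b (unadjusted p = 0.0312, adjusted p = 0.272). In the fit of all 12 libraries it was 0.20 for C1qc (95% interval -0.26 to 0.65), 0.15 for C4a (-0.40 to 0.70), 0.09 for C3 (-0.37 to 0.54) and 0.09 for Serping1 (-0.21 to 0.39). For Cfb it was -0.14 (-0.40 to 0.13), for C1qa 0.02 (-0.50 to 0.54) and for C1qb 0.00 (-0.52 to 0.53). With intervals this wide, the values do not show that the genotypes responded alike. With control set 2 as the B6 reference the difference was -0.15 for C3 and -0.17 for C1qb.

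Loss of Irf1 in untreated mice was compared with control set 2. No member was called by edgeR, DESeq2 or limma voom, and 2 of 8, Cfb and Serping1, had an unadjusted p under 0.05 in edgeR, against 10.4% of all genes, where 0.0874% of all 12588 genes were called higher and 0.318% lower. Control set 2 was not uniform in C3 and C4: replicate 2 held 188 CPM of C3 against 111 and 107 in its fellows, 179 CPM of C4b against 95.4 and 114, and 51.0 CPM of C4a against 27.0 and 31.3. The log2 fold change, Irf1-/- minus B6, was 0.39 ± 0.20 for C3 (adjusted p = 0.557), 0.21 ± 0.20 for C4a and 0.10 ± 0.19 for C4b. Without that library they were 0.71 for C3 (adjusted p = 0.0186), 0.53 for C4a (adjusted p = 0.0671) and 0.41 for C4b (adjusted p = 0.0838), and with control set 1 as the reference they were 0.15, 0.20 and -0.01. Without replicate 1 of control set 2 they were 0.27, 0.03 and -0.08, and without replicate 3 of that set 0.25, 0.11 and 0.02. The C1q genes had -0.16 for C1qa, -0.10 for C1qb and -0.21 for C1qc. Against control set 1 these were -0.27, -0.28 and -0.43 (adjusted p for C1qc 0.109), and without untreated Irf1-/- replicate 1 they were -0.036, -0.0090 and -0.11. Cfb had -0.18 ± 0.07 (adjusted p = 0.407).

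Serping1 had a log2 fold change of 0.22 ± 0.06 (adjusted p = 0.177), with the untreated Irf1-/- libraries (77.4, 77.5 and 84.4 CPM) all above those of control set 2 (67.0, 69.6 and 68.8 CPM), as in 7.83% of all genes. Against control set 1 the value was -0.03. The control sets themselves differed in Serping1 by as much, with set 2 minus set 1 at -0.25 ± 0.10 (adjusted p = 0.218) and no overlap, as in 11% of all genes. No other member separated the control sets, and edgeR, DESeq2 and limma voom called none between them (0.0242% of all genes were called higher by edgeR and 0.0403% lower, and of the members only Serping1 had an unadjusted p under 0.05, against 17.2% of all genes). B and plasma cell markers did separate the control sets, with a summed level of 808 to 891 CPM in set 1 and 434 to 479 CPM in set 2.

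At D26, Irf1-/- and B6 colons were compared directly, and again no member was called by edgeR, DESeq2 or limma voom (1 of 8, Cfb, had an unadjusted p under 0.05 in edgeR, against 22% of all genes, while 0.0721% of all 12483 genes were called higher and 0.312% lower). Cfb was lower in each Irf1-/- D26 library (98.5, 113 and 117 CPM) than in each B6 D26 library (142, 123 and 133 CPM), as in 13% of all genes, with a log2 fold change of -0.29 ± 0.10 (adjusted p = 0.134). C4b had 0.33 ± 0.16 (adjusted p = 0.276), C4a 0.34 ± 0.18 (adjusted p = 0.288) and C3 0.22 ± 0.16 (adjusted p = 0.429). Without B6 D26 replicate 2 they were 0.54 (adjusted p = 0.0562), 0.58 (adjusted p = 0.0505) and 0.42 (adjusted p = 0.101). The C1q genes had -0.27 for C1qa, -0.29 for C1qb and -0.25 for C1qc, with adjusted p of 0.249 to 0.304, and Serping1 had 0.04. With GC correction Cfb was at -0.19 (adjusted p = 0.422), C3 at 0.33 (adjusted p = 0.457), C4a at 0.47 (adjusted p = 0.346) and C4b at 0.46 (adjusted p = 0.324). The C1q values were then -0.098, -0.14 and -0.095, and without B6 D26 replicate 2 they were -0.11, -0.14 and -0.14. Of 15 macrophage markers 14 also had a negative value in this comparison (median -0.19, none called), and their part in the C1q values was not tested. Beside this, a list of genes that respond to interferon-gamma had a median log2 fold change (Irf1-/- minus B6) of -0.62 over 19 genes untreated and -0.93 over 17 genes at D26, with 5 and 4 of them called lower.

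Across the 15 libraries the members fell into sets of like pattern, given here as the root mean square difference of log2 levels after each gene was centred on its own mean. C4a and C4b were closest (0.0965), followed by C1qa with C1qc (0.101), C1qb with C1qc (0.107) and C1qa with C1qb (0.122). C3 lay 0.171 from C4b, and Cfb lay 0.616 from C3. Among all other genes present in the 3 tables, the one nearest to the mean of the C1q genes was Cd68, a macrophage lysosomal protein (0.0948), ahead of 1700017B05Rik (0.123) and N4bp3 (0.126). The gene nearest to C3 (0.191) and to C4b (0.163) was Icam1, the endothelial and epithelial adhesion molecule to which leukocytes bind. For C3 it was followed by Csf2rb (0.218), a cytokine receptor chain, and Lilrb3 (0.221), and for C4b by Fcgr2b (0.219), an inhibitory Fc receptor, and Mpeg1 (0.22). Nearest to Cfb were Akap1 (0.071), Shmt1 (0.0801) and Cd99l2 (0.0804), and nearest to Serping1 were Tmem176b (0.0786), Timp2 (0.0844) and Slc6a6 (0.0884). The small differences of the last 2 members go with the small spread of these genes, 0.14 for Cfb and 0.212 for Serping1, against 0.544 for C3. C2 had values in 6 libraries and was not compared.

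The rest of the pathway was read from lists of enzymes, regulators, receptors and terminal components. None of these genes was called in any comparison. Of 6 initiation enzymes and related proteins measured in both responses, 5 had a positive log2 fold change over both genotypes (median 0.28). In B6 mice 4 of 7 were positive (median 0.04), with the lowest at -1.245 in a gene outside these 6. In Irf1-/- mice 5 of 6 were positive (median 0.45). C1ra, a C1r protease gene, was at 60.7 to 70.5 CPM in control set 1, 79.4 to 99.7 in B6 D26, 42.4 to 44.6 in untreated Irf1-/- and 59.7 to 65.0 CPM in Irf1-/- D26 libraries. Its log2 fold change over both genotypes was 0.47 ± 0.06 (adjusted p = 0.00128), below 1.5-fold. C1rb, its close paralog, had 0.53 ± 0.07 (adjusted p = 0.00139), and since the paralogs share sequence their counts are uncertain. The C1r genes were lower in Irf1-/- mice without overlap in both states. So were 958 of all 12588 genes untreated and 1618 of all 12483 genes (13%) at D26. C1ra had -0.41 ± 0.09 untreated (adjusted p = 0.0575) and -0.47 ± 0.10 at D26 (adjusted p = 0.056).

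Of 9 regulators measured in both responses, 6 were positive over both genotypes (median 0.06). In B6 mice 4 of 10 were positive (median -0.04) and in Irf1-/- mice 8 of 9 (median 0.27), none called in either. At D26 all 9 had a positive log2 fold change between genotypes (Irf1-/- minus B6, median 0.36, none called), and their summed level was 317 to 350 CPM in B6 and 411 to 444 CPM in Irf1-/- libraries. Daf2, a decay-accelerating factor gene, had 0.34 ± 0.11 over both genotypes (adjusted p = 0.0459). Of 8 receptors, 7 were positive over both (median 0.36), with Cd93, a receptor once described as one for C1q, at 0.27 ± 0.06 (adjusted p = 0.00884) and Itgam, a chain of complement receptor 3 on myeloid cells, at 0.55 ± 0.14 (adjusted p = 0.019). No terminal component (Hc, which encodes C5, or the genes of C6 to C9) was in the tables.

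**Figure D5:**
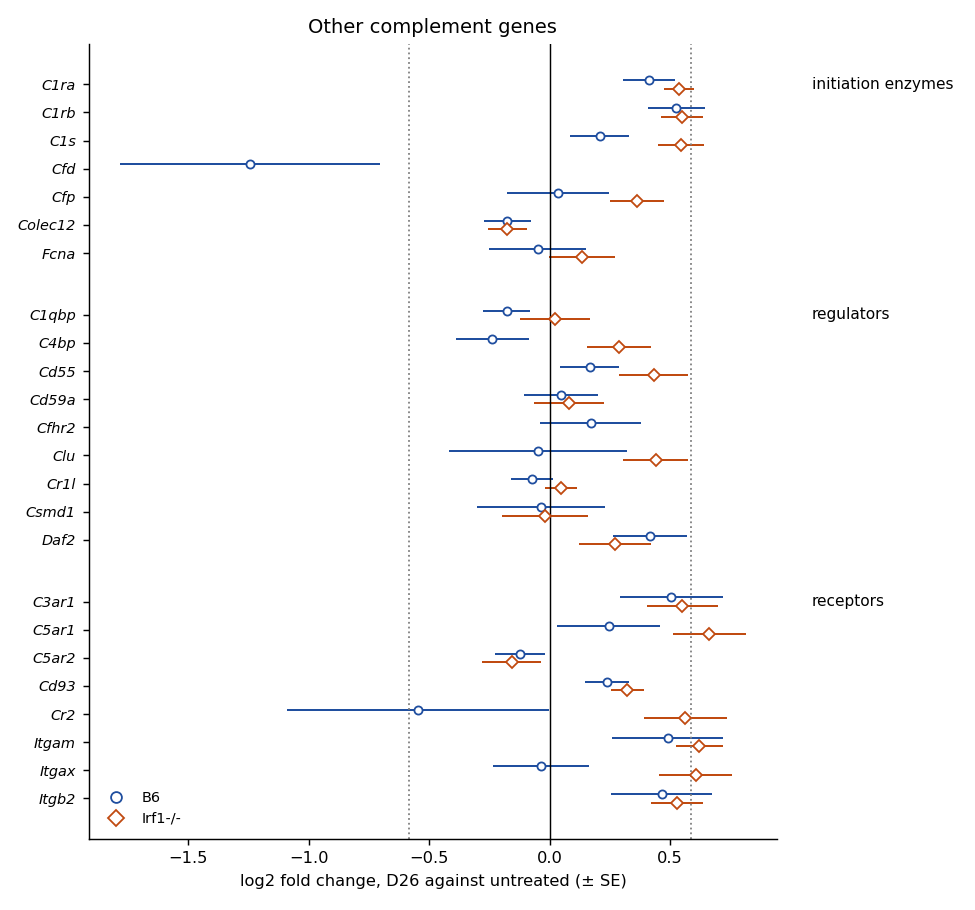
Log2 fold change at D26 against untreated mice (x axis, bars are standard errors) of initiation enzymes, regulators and receptors of complement in B6 and Irf1-/- mice, with dotted lines at a fold change of 1.5. None of the genes shown was called, and C1ra (0.41 in B6 and 0.54 in Irf1-/- mice) and C1rb (0.53 and 0.55) lie to the right of 0 and below 1.5-fold in both.

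Markers of other cells were counted over both genotypes in the same fit, in which 118 of 12483 genes were called higher and 44 lower, with a median log2 fold change of -0.00. Of 12 neutrophil markers only 2 were in the tables, Cxcr2 (-0.30, adjusted p = 0.00401) and Csf3r (-0.01), and the granule genes were not. Of 8 B and plasma cell markers 4 were positive (median -0.00, none called), with Igj at -0.40 and Mzb1 at -0.39. Of 3 T cell markers 2 were positive (median 0.30), with Cd4 at 0.67 (adjusted p = 0.0224) and the lowest at -0.28. In Irf1-/- mice the lowest T cell marker was at -0.46 and lower at D26 without overlap, as were 1647 of all 12692 genes. Of 12 fibroblast and stroma markers 9 were positive (median 0.17), none called, with Pdgfrb at 0.39 (adjusted p = 0.00826). Of 13 epithelium markers 9 were positive (median 0.03), with the mucin Muc2 called higher (0.96) and the carbonic anhydrase Car1 called lower (-0.80). The highest log2 fold change of any epithelium marker was 1.68 in B6 but 0.42 in Irf1-/- mice, so the Muc2 mean came mostly from B6. None of 8 smooth muscle markers was called (median 0.01). Albumin was not in the tables, and all 3 measured hepatocyte markers had a negative log2 fold change, with Serpina1a called lower (-0.72, adjusted p = 0.00262) and a summed level of 82.5 to 99.3 CPM in untreated and 60.4 to 83.2 CPM in D26 libraries. All 17 interferon-gamma response genes were positive (median 0.39, none called), and of 13 acute-phase and NF-kB genes 11 were positive (median 0.18), with the feedback inhibitor Socs3 called (1.19, adjusted p = 0.000856). The part of any of these cells in the complement values was not tested.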

How the data were processed

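RNA of 15 distal colons had been extracted with TRIzol, depleted of rRNA, made into stranded libraries and sequenced as 50-base pairs. The submitters' processing notes name TopHat2 2.0.9, Bowtie 1.0.0, featureCounts, edgeR and the mouse build mm9. How strand was set in the counting is not given in the sources used here. The authors deposited 3 tables with raw counts per gene, kept at 5 CPM in at least 3 libraries. The CPM and log2 CPM columns that the authors derived from the counts (18 of each), and the log2 fold change, p-value and score columns of the authors' own comparisons, were not used.

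Counts were joined by gene symbol and normalised by TMM, once over all 15 libraries for printed CPM and once within each comparison. The 37488 values of the untreated Irf1-/- mice that stand in a pair of tables were checked to be identical, and these mice were counted once. Each comparison was fitted with edgeR 4.0.16 (quasi-likelihood F test, R 4.3.3) on all genes of the libraries compared, with Benjamini-Hochberg adjustment over all of them and the study's limits of a fold change of 1.5 and an adjusted p of 0.01. The mean and the difference of the responses came from 1 fit of 12 libraries. limma 3.58.1 (voom) and DESeq2 1.42.0, RLE size factors, a filter of 10 CPM, a replicate block, GC correction, other control sets and leaving out each mouse were alternatives, and log2 Xist as a covariate was added after the data were seen. Scripts were tested on simulated data. Replicates are separate mice. Lengths and GC content are of the longest GENCODE M21 transcript, aligned for C4a and C4b with mafft 7.526. Promoters are RefSeq's, of GRCm38.p6, found here for 3 of the 9 genes. Named genes were all members, the 2 genes of each other complement list and up to 3 of each marker list with the smallest p over both genotypes, and the 3 genes most like a member. Of the genes this rule names, 1 is not reported here. Members and lists were chosen with earlier results of these data known.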

Additional observations from a re-analysis of the deposited data

How the results depend on the processing

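Of 990 log2 fold changes of single members recomputed under an alternative, 909 kept their direction and their side of the limits, 21 came to pass the limits, 17 no longer passed them and 43 changed sign. In B6 mice, 0 members were called; 3 were called at an adjusted p under 0.05, 3 by DESeq2 and 2 with both control sets as 1 group. In Irf1-/- mice, 1 member was called; 5 were called at an adjusted p under 0.05, 5 by DESeq2 and 0 with all 15 libraries in 1 fit, and leaving out a mouse gave 0 to 2. Over both genotypes, 4 were called, 5 with the other control set (C1qc added), 3 with GC correction, 2 with log2 Xist as a covariate and 3 to 4 without 1 mouse. In the other comparisons, leaving out a mouse called 0. The cause was not tested.

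Across genes, the correlation of same-numbered deviations from group means was -0.128 to -0.113 in B6 and -0.0463 to 0.255 in Irf1-/- mice. Among the members, replicate 2 was the highest library for C4a and for C4b in every group. These values do not settle whether replicate numbers pair the mice. With the replicate block 3 members were called in Irf1-/- mice (C3, C4a and C4b).

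Signs changed as follows, most values being near 0. Cfb in B6 mice was -0.069 with GC correction, -0.070 with GC correction and the block, and -0.013 to 0.092 without 1 mouse. Over both genotypes Cfb was 0.0018 with Xist, and -0.066 to -0.00014 without 1 mouse. Between untreated genotypes, C4b was -0.012 and Serping1 -0.029 with the other control set, and -0.078 to 0.41 and 0.18 to 0.24 without 1 mouse. Between treated genotypes, Serping1 was -0.0049 to 0.12 without 1 mouse. Between control sets, C4a was 0.00066 with RLE, 0.00048 by DESeq2, 0.00050 at 10 CPM and 0.018 with GC correction. Without 1 mouse it was -0.32 to 0.18, C4b -0.41 to 0.069, C1qa -0.27 to 0.082 and C1qb -0.30 to 0.015. The difference of responses with the other control set was -0.15 for C3, -0.090 for C1qa, -0.17 for C1qb, -0.022 for C1qc and -0.16 for Serping1, and with both sets -0.028 for C3, -0.033 for C1qa, -0.082 for C1qb and -0.031 for Serping1. For C1qb it was -0.0030 with RLE and -0.0031 by DESeq2. Without 1 mouse it was -0.0098 to 0.28 for C3, -0.17 to 0.18 for C1qa, -0.19 to 0.15 for C1qb, 0.061 to 0.33 for C1qc and -0.034 to 0.15 for Serping1. C2 had the fewest reads of the members, 110 to 340 a library.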
